A study of Mus musculus with 6 samples.

Results

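The genes described here are 10 members of the BCL2 family, which holds the proteins that guard or open the mitochondrial outer membrane during apoptosis. They were chosen by name, as the rows of the expression table whose gene name was Mcl1, Bcl2a1a, Bcl2a1b, Bcl2a1d, Bcl2l1, Bcl2, Bcl2l11, Bid, Bax or Bak1, and all 10 were found among 54532 genes. Each name matched a single row. The rule used names only, but it was set with earlier results of these data known.

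RNA was sequenced from bone marrow neutrophils of wild-type (WT) mice and of mice lacking progranulin (PGRN KO), a secreted growth factor precursor encoded by Grn. All mice carried the C57BL/6J strain label, and both genotypes gave 3 libraries. Every library, including the WT ones titled "control", came from cells kept for 2 h in siliconized tubes and then exposed to live Candida albicans for 6 h, at a ratio of 1:1 by the labels, while the study's text gives another ratio. No unexposed library was analysed here, so the values describe genotypes under fungal challenge and not a response to the fungus. Neutrophils had been taken with magnetic beads against Ly-6G. The knockout mice were bought from the Jackson Laboratory and the WT mice from Chongqing Medical University, so that genotype and the source of the mice cannot be told apart. The sources used here do not say from how many mice a culture was made, and p-values measure the spread between these cultures only.

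A cell enters the mitochondrial route to apoptosis when BAX and BAK proteins form pores in the outer mitochondrial membrane and cytochrome c escapes. Survival members such as MCL1, BCL-XL (Bcl2l1), A1 (the Bcl2a1 genes) and BCL2 hold these pore formers and the so-called BH3-only proteins, such as BIM (Bcl2l11) and BID, in check. Neutrophils are short-lived cells with little BCL2, and they are known to depend on MCL1, a protein with rapid turnover. They also express A1, which inflammatory signals induce.

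The Bcl2a1 genes are near-identical copies on chromosome 9, and their sequences are shown first because their reads can be hard to assign. On GRCm38, Bcl2a1d lies at chr9:88723285-88731914 on the minus strand, Bcl2a1a at chr9:88956900-88962419 on the plus strand and Bcl2a1b at chr9:89199209-89207827 on the plus strand. Their coding sequences are 516 bases long without the stop codon, and differ by 7 bases between Bcl2a1d and Bcl2a1a (98.64% identity), by 6 between Bcl2a1d and Bcl2a1b (98.84%) and by 11 between Bcl2a1a and Bcl2a1b (97.87%). The first 60 coding bases from the GENCODE M21 transcripts are given below, with capitals at the 6 positions where the copies are not all the same, which make up 6 of the 12 such positions in the whole coding sequence.
Bcl2a1d: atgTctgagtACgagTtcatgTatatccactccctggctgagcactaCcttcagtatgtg
Bcl2a1a: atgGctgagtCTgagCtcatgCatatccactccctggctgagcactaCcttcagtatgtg
Bcl2a1b: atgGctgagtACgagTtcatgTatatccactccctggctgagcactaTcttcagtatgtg
A read of 150 bases could nevertheless be placed in many positions. Of all windows of 150 bases in the transcript, 69.75% in Bcl2a1d, 71.79% in Bcl2a1a and 85.78% in Bcl2a1b occur in neither of the other copies. The sources used here do not say how the counting treated the remaining reads, so the level of each copy alone is uncertain and their sum is given beside them. A further copy, Bcl2a1c, had 0 fragments in all 6 libraries and is named here after its values were seen.

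The promoters of these copies are as alike as the coding sequences. In the RefSeq windows from 250 bases before to 50 bases after the gene start (GRCm38.p6), Bcl2a1d and Bcl2a1a matched at 288 of 294 aligned bases and Bcl2a1a and Bcl2a1b at 254 of 256. The windows of Bcl2a1d (chr9:88731801-88732100, minus strand) and Bcl2a1a (chr9:88956670-88956969, plus strand) are shown 5′ to 3′, with GAGGAAGT, the core bound by the myeloid factor PU.1, in capitals.
Bcl2a1d: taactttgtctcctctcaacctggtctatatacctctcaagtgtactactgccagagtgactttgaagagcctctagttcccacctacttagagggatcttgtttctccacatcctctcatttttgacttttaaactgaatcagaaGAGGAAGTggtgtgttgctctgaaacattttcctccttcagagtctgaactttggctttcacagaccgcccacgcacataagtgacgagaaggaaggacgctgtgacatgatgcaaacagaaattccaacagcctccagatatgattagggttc
Bcl2a1a: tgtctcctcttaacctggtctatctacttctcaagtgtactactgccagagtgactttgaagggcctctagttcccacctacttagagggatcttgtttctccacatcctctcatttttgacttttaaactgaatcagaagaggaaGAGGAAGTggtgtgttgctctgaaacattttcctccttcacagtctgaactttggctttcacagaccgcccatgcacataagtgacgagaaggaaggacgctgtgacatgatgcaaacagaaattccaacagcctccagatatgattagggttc
Motifs were searched as letters on both strands in the RefSeq windows of all 10 members, 13 windows in all, and of all 32851 promoters. GAGGAAGT was found for 4 members, the 3 Bcl2a1 genes and Bak1, and in 3.2% of all promoters. TGANTCA, a loose form of the AP-1 motif, allows any middle base, where the usual motif has C or G. It was found for 3 members, the near-identical Bcl2a1 genes alone, and in 7.81% of all promoters. In the Bcl2a1d and Bcl2a1a windows shown, the match reads TGAATCA, which is not the usual form. The NF-kappaB motif, searched as GGG and CC with any 5 bases between them, was found for 8 members, but 50.8% of all promoters hold it. GTAAACA, the forkhead (FOXO) motif, was found for Bcl2l11 (3.65% of all promoters), and CACGTG, the E-box, for Bax (7.15%). These matches describe letters in the window and are not binding sites measured in these cells.

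The libraries held 17290604 to 17799798 fragments on genes in WT and 17087344 to 18821091 in PGRN KO. Grn (chr11:102430315-102437048), the deleted gene, was at 168.4, 161.3 and 166.1 FPKM in the WT libraries, against 0.242, 0.206 and 0.747 in the knockout. No library went against its genotype label. FPKM is the number of fragments divided by gene length and by library size, so that levels can be compared between genes. All 10 neutrophil markers listed were present, with 1 called higher (Mmp9) and 2 lower (Mmp8 and Csf3r). Their summed FPKM, most of it from S100a8, S100a9 and Ngp, overlapped between WT (66657 to 71236) and PGRN KO (68533 to 78247). Markers of immature neutrophils were higher in PGRN KO, with 5 of 6 called and a summed FPKM of 203.7 to 237.5 against 704.7 to 770.2, as were 3 of 4 markers of dividing cells (54.1 to 58.5 against 72.1 to 79.0). B and plasma cell markers summed to 24.4 to 26.6 FPKM in WT, against 71.6 to 86.9, with 4 of 6 markers called higher and 1 marker at 0 in WT. Summed FPKM of the monocyte and macrophage list was 524.4 to 530.3 in WT, against 550.6 to 698.0. Most of this sum came from Ly6c2 alone, with a mean of 401.1 in WT and 521.2 in PGRN KO. Of the 6 markers, 1 (Ly6c2) was called higher and 2 (Ccr2 and F13a1) lower, so the list did not move in a single direction. The lists for T and NK cells (2.25 to 2.89 against 7.29 to 8.44, nearly all of it from Nkg7 alone, with Cd3e and Cd3g at 0 in all libraries), basophils and mast cells (2.01 to 2.44 against 10.9 to 12.4), eosinophils (1.58 to 2.46 against 4.87 to 8.34), erythroid cells (0.975 to 3.14 against 5.46 to 6.21) and platelets (0.445 to 0.636 against 1.21 to 1.47) were also at higher summed FPKM in PGRN KO. These differences run alongside every genotype difference given here, and their part in the results was not tested. In such mixed RNA, fewer cells of a type and less RNA per cell cannot be told apart.

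The comparison of genotypes found 5 of the 10 members lower in PGRN KO and none higher. Bcl2a1d, Bcl2a1a and Bcl2a1b among the survival members, and Bax and Bcl2l11 among the death members, passed an adjusted p of 0.05 in limma on log2(FPKM + 1), a scale that understates changes of genes with low FPKM. Among all 14807 genes tested, 17.9% were called, 9.95% as lower and 7.94% as higher. At an unadjusted p under 0.05, 6 members were lower and 0 were higher, beside 16.9% and 15.2% of all genes. Limma voom on the recovered fragments called 5 members lower and 1 higher, which was Bcl2. Over all 14807 genes voom called 24.4%, 1926 genes as lower and 1690 as higher. Counting the 3 near-identical copies as their sum, 3 of 8 members were called lower. The median log2 fold change of PGRN KO over WT was -0.27 over the 10 members and 0.0026 over all tested genes. Another scaling matters for such small changes. When the libraries were scaled to their plain totals of fragments, the values of PGRN KO moved up by 0.12 on the log2 scale relative to WT, the calls higher and lower over all genes turned from 1175 and 1473 to 2149 and 934, and the same 5 members were called lower, where 6.31% of all genes were called lower and 14.5% higher (20.8% in all), with a median of -0.16 beside 0.067 over all genes.

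**Figure D1:**
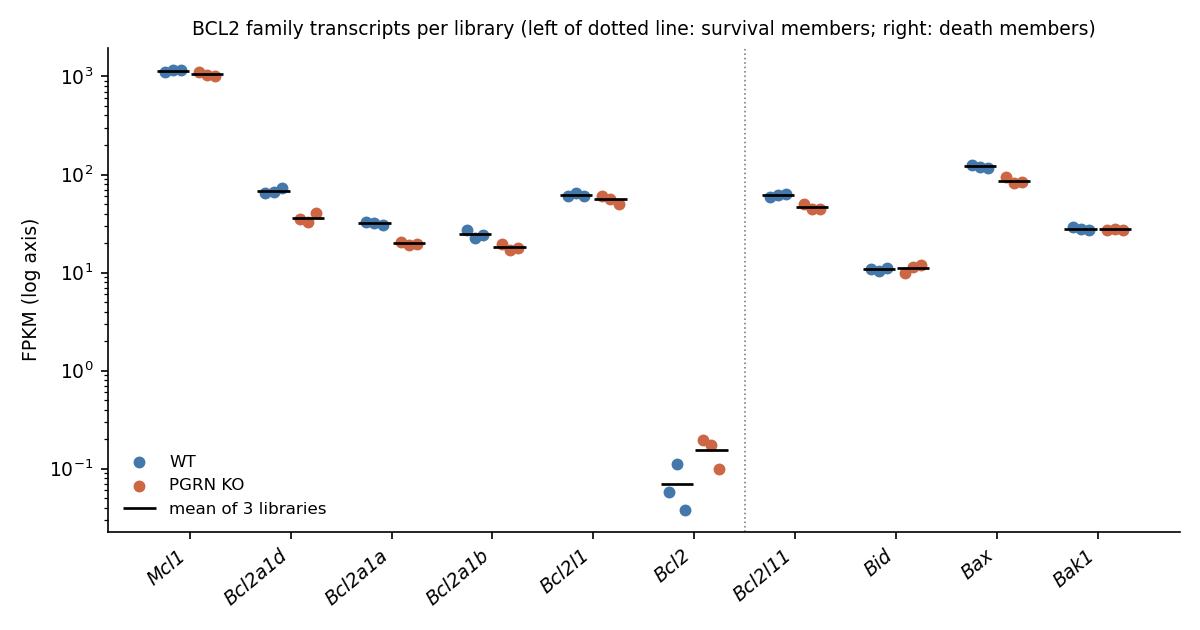
FPKM of each of the 10 members (log axis) in each library, with points for the 3 WT and 3 PGRN KO libraries and bars at the group means. Mcl1 is the highest in both genotypes, Bcl2 is the lowest, and the points of Bcl2a1a, Bcl2a1b, Bcl2a1d, Bcl2l11 and Bax lie lower in PGRN KO without overlap. Those of Mcl1 and Bcl2l1 also lie lower without overlap, by narrow gaps.

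Levels of the members spanned a wide range. Mcl1 had the highest mean FPKM of the family in WT, 1150 ± 28.3 (SD, n = 3), and its mean over the 6 libraries ranked 42 among all 54532 genes. Bax followed at 120.8, and then Bcl2a1d at 67.8, Bcl2l1 at 61.9 and Bcl2l11 at 61.3, whose libraries overlapped between neighbours in that order. Bcl2a1a (31.7), Bak1 (28.0), Bcl2a1b (24.7) and Bid (10.8) came next, with overlap between Bak1 and Bcl2a1b only. Bcl2 was last, at 0.0691. In PGRN KO the order was Mcl1 (1053), Bax (86.6), Bcl2l1 (55.6), Bcl2l11 (46.4), Bcl2a1d (36.1), Bak1 (27.6), Bcl2a1a (19.8), Bcl2a1b (18.2), Bid (11.0) and Bcl2 (0.157). There Bcl2a1d stood below Bcl2l11 in every library, and of neighbours in the order only Bcl2a1a and Bcl2a1b overlapped.

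Of the survival members, Mcl1 (chr3:95658788-95663176) encodes the short-lived protein on which neutrophil survival is known to rest. Its FPKM was 1118, 1161 and 1171 in WT, against 1114, 1034 and 1013 in PGRN KO. The groups do not overlap, but the highest PGRN KO library lies only just below the lowest WT library. The log2 fold change of -0.13 (SE 0.050, 95% interval -0.25 to -0.0081) did not pass the test, with an adjusted p of 0.134 in limma. Under plain totals it was -0.0073 and under quantile normalization 0.077, and leaving out PGRN KO replicate 4 brought it to -0.17 with a limma adjusted p of 0.0453, the lowest over all alternatives, whose highest was 0.936. The values rest on 199671 fragments in WT and 200158 in PGRN KO.

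The A1 gene with the largest share, Bcl2a1d, had an FPKM of 64.5, 65.6 and 73.4 in WT and of 35.0, 33.0 and 40.4 in PGRN KO. Every PGRN KO library was below every WT library by a wide gap. The mean fell by 46.7%, from 67.8 ± 4.87 to 36.1 ± 3.82 (SD, n = 3), the largest fall of the family, with a log2 fold change of -0.89 (SE 0.086, 95% interval -1.10 to -0.69, adjusted p = 0.00142 in limma). Bcl2a1a was 32.5, 32.3 and 30.2 in WT and 20.5, 19.2 and 19.6 in PGRN KO. These groups also lay well apart, and the mean fell by 37.5% (log2 fold change -0.65, SE 0.049, limma adjusted p = 0.000595). For Bcl2a1b the values were 27.4, 22.7 and 24.2 in WT and 19.7, 16.8 and 17.9 in PGRN KO, again without overlap. The mean was lower by a log2 fold change of -0.42 (SE 0.085, limma adjusted p = 0.0178), the smallest change of the copies. The call for Bcl2a1b was lost without WT replicate 3 (adjusted p = 0.0580), PGRN KO replicate 5 (0.0714) or PGRN KO replicate 6 (0.0556), while those for Bcl2a1d and Bcl2a1a held under all alternatives. Exons of Bcl2a1b share 401 of 817 bases with Gm29094 on the same strand, whose mean FPKM was 0.0898 in WT, against 0.11 in PGRN KO.

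Because the copies share reads, their sum was also compared. It does not depend on how shared reads were split between the copies. If shared reads were left out of the counting, the sum and the ratios built on it lack them too. Summed FPKM of the Bcl2a1 genes was 124.3, 120.5 and 127.8 in WT and 75.2, 69.1 and 77.9 in PGRN KO. The sum fell by 40.4%, with a log2 fold change of -0.74 (SE 0.055, adjusted p = 0.000573 in limma, with the sum in place of the copies). The share of Bcl2a1d in it was 51.8%, 54.4% and 57.4% in WT and 46.5%, 47.8% and 51.8% in PGRN KO. The lowest WT share and the highest PGRN KO share are thus equal to the printed decimal, and whether the copies differ in the size of their fall was not tested.

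**Figure D2:**
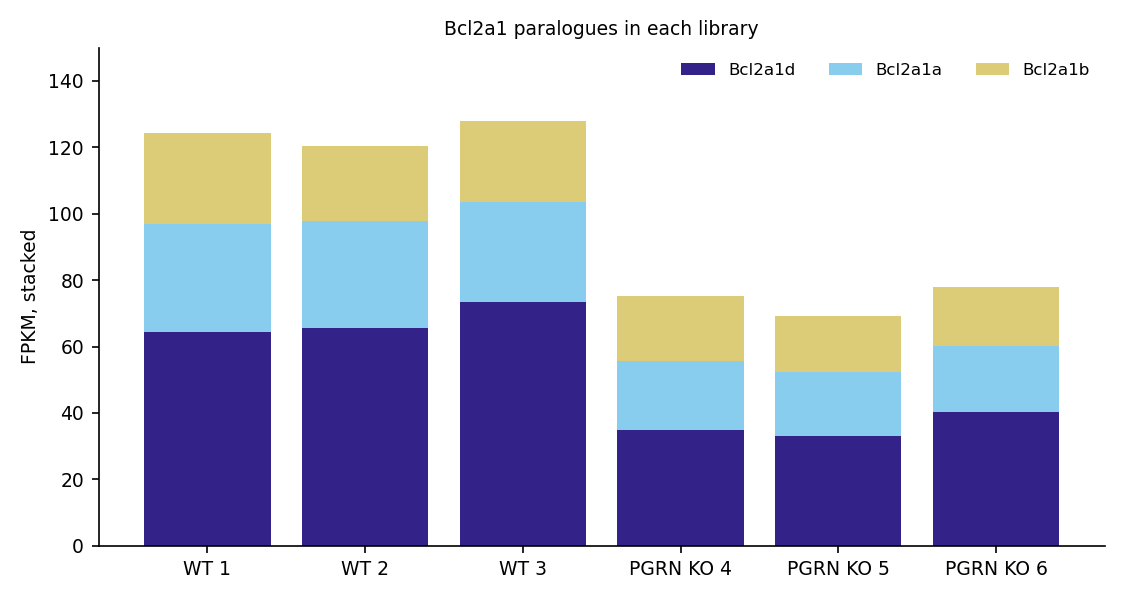
Stacked bars of the FPKM of Bcl2a1d, Bcl2a1a and Bcl2a1b in each of the 3 WT and 3 PGRN KO libraries (linear axis from 0), so that the full height is their sum. For every copy and for the sum, all PGRN KO libraries lie below all WT libraries, and the sum is 120.5 to 127.8 in WT, against 69.1 to 77.9.

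Bcl2l1 (chr2:152780668-152831728), which encodes BCL-XL, was at 60.5, 64.7 and 60.6 in WT and at 59.8, 56.7 and 50.5 in PGRN KO. The groups do not overlap, although the gap between them is narrow beside the spread within PGRN KO. Its log2 fold change of -0.15 (SE 0.069, 95% interval -0.32 to 0.011) missed the threshold, with a limma adjusted p of 0.182.

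Bcl2 itself (chr1:106538178-106714274), the founding survival gene, was barely detected. Its fragments numbered 9, 17 and 6 in WT and 32, 29 and 18 in PGRN KO, which gave an FPKM of 0.0579, 0.111 and 0.0383 against 0.196, 0.174 and 0.10. WT replicate 2 lay above PGRN KO replicate 6, so the groups overlap. On log2(FPKM + 1) the fold change was 0.11 (SE 0.067, adjusted p = 0.301 in limma), which at such levels understates the 2.27-fold ratio of the mean FPKM. With voom on fragments, which does not compress low values, it was 1.21 on the log2 scale (SE 0.42, adjusted p = 0.0403), the lowest adjusted p over the alternatives, whose highest was 0.446. Bcl2 is a gene that lymphocytes express, and the summed B and plasma cell markers given above were higher in PGRN KO. Their part in this value was not tested.

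Among the death members, Bcl2l11 (chr2:128126038-128162547) encodes BIM, a BH3-only protein that binds every survival member and is induced when growth factors are withdrawn. It was at 58.7, 61.2 and 64.0 FPKM in WT and at 49.5, 45.0 and 44.8 in PGRN KO, with no overlap. The mean fell by 24.3%, from 61.3 ± 2.66 to 46.4 ± 2.67 (SD, n = 3), a log2 fold change of -0.39 (SE 0.057, adjusted p = 0.00574 in limma), and the call held under all alternatives.

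Bid (chr6:120891930-120916853) encodes the BH3-only protein through which caspase-8 links death receptors to mitochondria. Its FPKM of 11.0, 10.4 and 11.1 in WT and 9.85, 11.3 and 11.9 in PGRN KO overlapped. The log2 fold change was 0.020 (95% interval -0.16 to 0.20, limma adjusted p = 0.883), which leaves room for a difference of that size in either direction. Its exons share 628 of 3550 bases with Bcl2l13 on the opposite strand (mean FPKM 5.92 in WT and 5.27 in PGRN KO), and strand use in the counting is not stated.

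Of the pore formers, Bax was called lower and Bak1 was not called. Bax (chr7:45461697-45466898) was at 126.5, 119.8 and 116.2 in WT and at 94.1, 82.6 and 83.1 in PGRN KO. All PGRN KO libraries lay below all WT libraries, and the mean fell by 28.3%, with a log2 fold change of -0.48 (SE 0.064, 95% interval -0.63 to -0.33, adjusted p = 0.00448 in limma), a call that held under all alternatives. Bak1 (chr17:27019810-27029009), whose protein already sits in the mitochondrial membrane, was at 29.2, 27.8 and 27.1 in WT and at 27.4, 28.0 and 27.2 in PGRN KO. These groups overlapped, with a log2 fold change of -0.023 (95% interval -0.13 to 0.083, limma adjusted p = 0.766), which was 0.093 under plain totals. Its exons share up to 437 of 2407 bases with Ggnbp1 on the opposite strand, whose mean FPKM was 0.125 in WT, against 0.194. The ratio of Bax to Bak1 within a library, which no scaling between libraries can alter, was 4.34, 4.30 and 4.29 in WT and 3.43, 2.94 and 3.06 in PGRN KO.

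**Figure D3:**
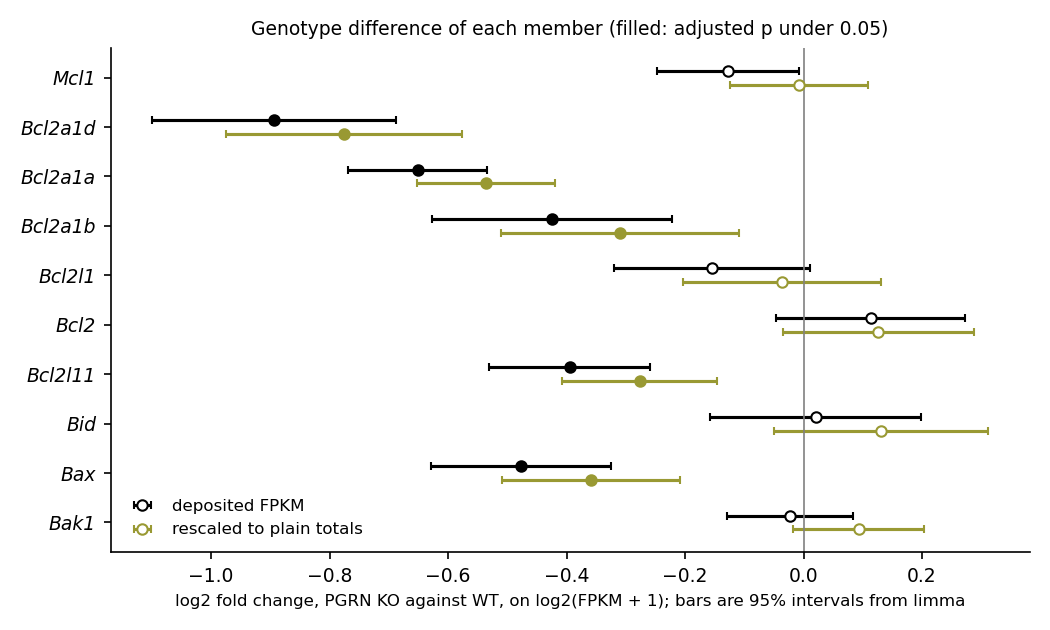
Log2 fold change of PGRN KO over WT for each member on log2(FPKM + 1), with 95% intervals from limma, for the FPKM as deposited and for plain totals of fragments. The intervals of Bcl2a1d, Bcl2a1a, Bcl2a1b, Bax and Bcl2l11 lie below 0 under both scalings, marked as filled points past an adjusted p of 0.05. Of the other members, open points, only Mcl1 as deposited (-0.25 to -0.0081) has an interval that leaves out 0.

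Groups did not overlap for 7 of the 10 members, all lower in PGRN KO, the 5 called genes with Mcl1 and Bcl2l1. Over all tested genes 37.7% had groups that do not overlap. Of all genes, 19.6% were lower and 18.1% higher in this way. Under plain totals 5 members were lower without overlap and 1, Bak1, was higher, beside 11.8% and 29.1% of all genes (40.9% in all). For a single gene, an exact permutation test of 3 against 3 libraries can reach a p no smaller than 0.10.

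Ratios within a library are free of the scaling between libraries, and they were compared as values, with no test. Summed FPKM of the 6 survival members was 1336 ± 29.7 in WT and 1183 ± 57.5 in PGRN KO, and that of the 4 death members was 221.0 ± 3.75 and 171.6 ± 8.08 (SD, n = 3). Survival over death was 5.78, 6.14 and 6.23 in WT and 6.90, 6.95 and 6.84 in PGRN KO, so every PGRN KO library was higher. This ratio is carried by Mcl1, which made up 86.1% ± 0.225 of the survival FPKM in WT and 89.0% ± 0.24 in PGRN KO. Without Mcl1, the other 5 survival members over the death members gave 0.843 ± 0.0211 in WT and 0.757 ± 0.0114 in PGRN KO, which is the opposite direction, again without overlap. The sign of a summed balance thus depended on whether 1 gene was counted, and mRNA sums are not a measure of protein or of cell death.

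Single pairs of genes were compared in the same way. Mcl1 over Bcl2l11 was 19.1, 19.0 and 18.3 in WT and 22.5, 23.0 and 22.6 in PGRN KO, and Mcl1 over the summed Bcl2a1 genes was 9.26 ± 0.332 in WT and 14.3 ± 1.10 in PGRN KO. In both pairs each PGRN KO library was above each WT library. Bcl2l1 over Bcl2l11 was 1.01 ± 0.0573 in WT and 1.20 ± 0.0673 in PGRN KO, and Mcl1 over Bax 9.54 ± 0.634 and 12.2 ± 0.343. The summed Bcl2a1 genes were lower in PGRN KO relative to both called death members, at 2.03 ± 0.08 against 1.60 ± 0.123 over Bcl2l11 and at 1.03 ± 0.0618 against 0.858 ± 0.0721 over Bax (SD, n = 3). None of these pairs overlapped between the genotypes.

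**Figure D4:**
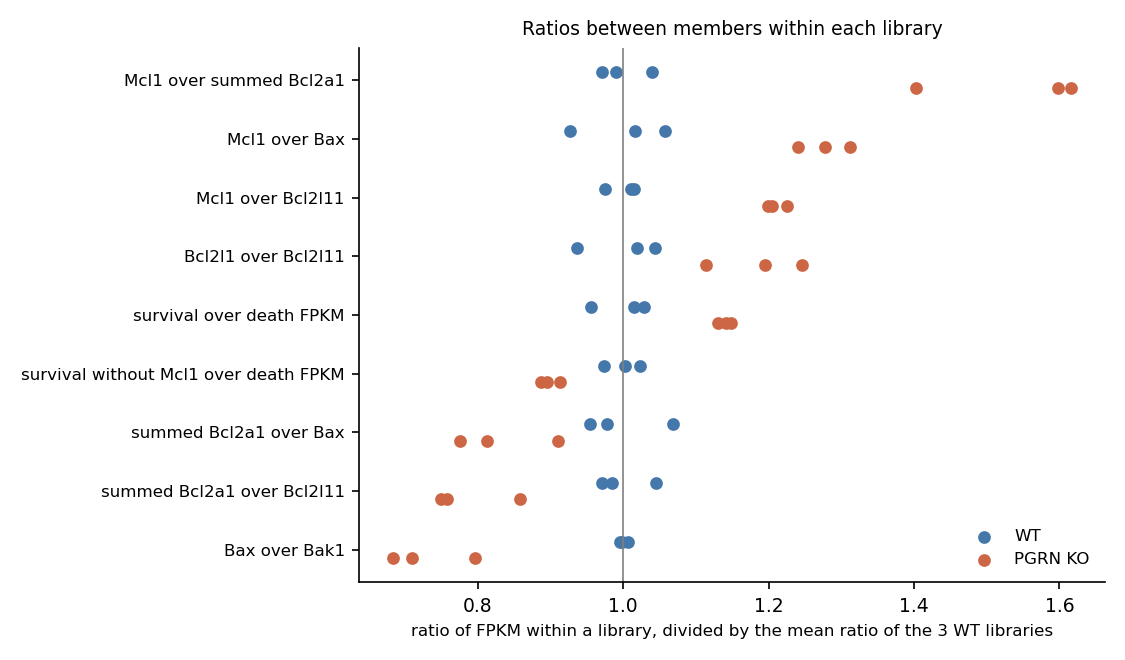
Within-library ratios of FPKM for each of the 3 WT and 3 PGRN KO libraries, each divided by the mean ratio of the WT libraries, so that the vertical line at 1 is the WT mean and points are libraries. Survival over death, Mcl1 over Bcl2l11 and Mcl1 over summed Bcl2a1 are higher in every PGRN KO library, and survival without Mcl1 over death and Bax over Bak1 are lower.

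Of 16 other BCL2 family genes listed, 9 were tested, and 1 was called, as higher (11.1%), beside 7.94% of all genes. The median log2 fold change of this list was 0.11. Bcl2l2, which encodes the survival protein BCL-W, was called higher, from 2.73, 2.89 and 3.04 FPKM to 3.85, 4.12 and 3.52 (log2 fold change 0.31, limma adjusted p = 0.0269), a call that was lost when any library but PGRN KO replicate 6 was left out. None was called lower, with 1 lower at an unadjusted p under 0.05 and 0 by voom. Bnip3, which encodes a mitophagy receptor and had the highest FPKM on the list, was at 258.1, 279.0 and 283.4 in WT and 265.8, 288.5 and 301.5 in PGRN KO. Its groups overlapped. Pmaip1, which encodes NOXA, the BH3-only partner that targets MCL1 protein for degradation, was at 38.2, 39.9 and 39.0 in WT and 44.9, 41.3 and 43.1 in PGRN KO. The groups do not overlap, but its limma adjusted p was 0.0854, and Pmaip1 and Bnip3l, another mitophagy receptor, passed under plain totals.

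Downstream of the mitochondrion, 22 caspase, apoptosome and inhibitor of apoptosis genes were listed and 21 tested. With the FPKM as deposited 4 were called (19.0%), 2 higher and 2 lower, beside 17.9% of all genes. Cycs, which encodes cytochrome c, fell from 24.9, 23.9 and 22.4 FPKM to 18.7, 19.5 and 18.2 (log2 fold change -0.32, limma adjusted p = 0.0111). Birc3, an NF-kappaB target that encodes cIAP2, was also called lower, at 98.5, 109.2 and 113.9 in WT and 91.0, 85.4 and 93.5 in PGRN KO (adjusted p = 0.0427). Neither passed under plain totals. There 5 genes of the list were called higher, among them Apaf1, Birc5, Naip5 and Naip6. They made up 23.8% of the list, beside 14.5% of all genes called higher under that scaling. Birc5 rose from 11.4, 10.8 and 10.3 to 14.7, 16.9 and 15.2 (log2 fold change 0.49, adjusted p = 0.00502). Its product survivin is known for its role in cell division, and the summed markers of dividing cells given above were also higher. Their part in this rise was not tested. The median of the list was 0.027.

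Of the 18 death receptor and regulated necrosis genes, all of them tested, 4 were called lower (22.2%) and none higher. Over all genes, 9.95% were called lower and 7.94% higher. In this list, 3 were higher and 7 lower at an unadjusted p under 0.05, beside 15.2% and 16.9% of all genes. By voom 1 was called higher and 5 lower, beside 1690 and 1926 of all 14807 genes. Fas, the death receptor, was at 119.1, 122.8 and 127.2 in WT and 101.4, 95.5 and 106.2 in PGRN KO (log2 fold change -0.28, limma adjusted p = 0.0133). Tnfrsf1a, the TNF receptor, was lower by -0.22 (adjusted p = 0.0352). The inhibitors of these receptors were lower as well, Cflar, which encodes the caspase-8 inhibitor cFLIP, by -0.32 (adjusted p = 0.00548), and Tnfaip3, which encodes A20, by -0.51 (adjusted p = 0.0144). Under plain totals only Cflar and Tnfaip3 of these passed, and 3 other genes of the list, Cyld, Ripk3 and Tradd, were called higher. Of all genes, 14.5% were called higher under that scaling. The median of the list was -0.10.

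The list of upstream regulators held 21 genes, most of them chosen as regulators of the members' transcription or protein stability. It also held Vdac1, which encodes a channel of the mitochondrial outer membrane. Of the 21 genes, 7 were called lower (33.3%) and none higher, beside 9.95% and 7.94% of all genes. At an unadjusted p under 0.05, 0 were higher, and 0 were called higher by voom. Stat5a, which relays GM-CSF signals, showed the largest change, from 8.96, 9.25 and 8.78 FPKM to 5.95, 5.04 and 4.71 (log2 fold change -0.69, limma adjusted p = 0.00284). Csf2rb, the shared beta chain of the GM-CSF receptor, was at 97.2, 98.1 and 98.8 in WT and 78.1, 71.6 and 74.9 in PGRN KO (log2 fold change -0.39, adjusted p = 0.00251). Stat3 was lower by -0.35 (adjusted p = 0.00561). These 3 genes passed under plain totals too, where 1 gene of the list, Vdac1, was called higher. The other 4, Csf2ra (-0.31, adjusted p = 0.0248), Csf2rb2 (-0.19, adjusted p = 0.043), Csf3r, the G-CSF receptor (-0.16, adjusted p = 0.0336), and Nfkbia, the inhibitor of NF-kappaB (-0.26, adjusted p = 0.0491), did not. Cebpb had the highest FPKM of the list and was not called (log2 fold change -0.29, adjusted p = 0.11). The median over the 21 genes was -0.16. Stat5a (chr11:100859351-100885169) and Stat3 (chr11:100885098-100939540) lie on the same chromosome as the deleted Grn, whose coordinates are given above. For both, an effect of DNA linked to the deleted gene and one of the loss of progranulin cannot be told apart.

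**Figure D5:**
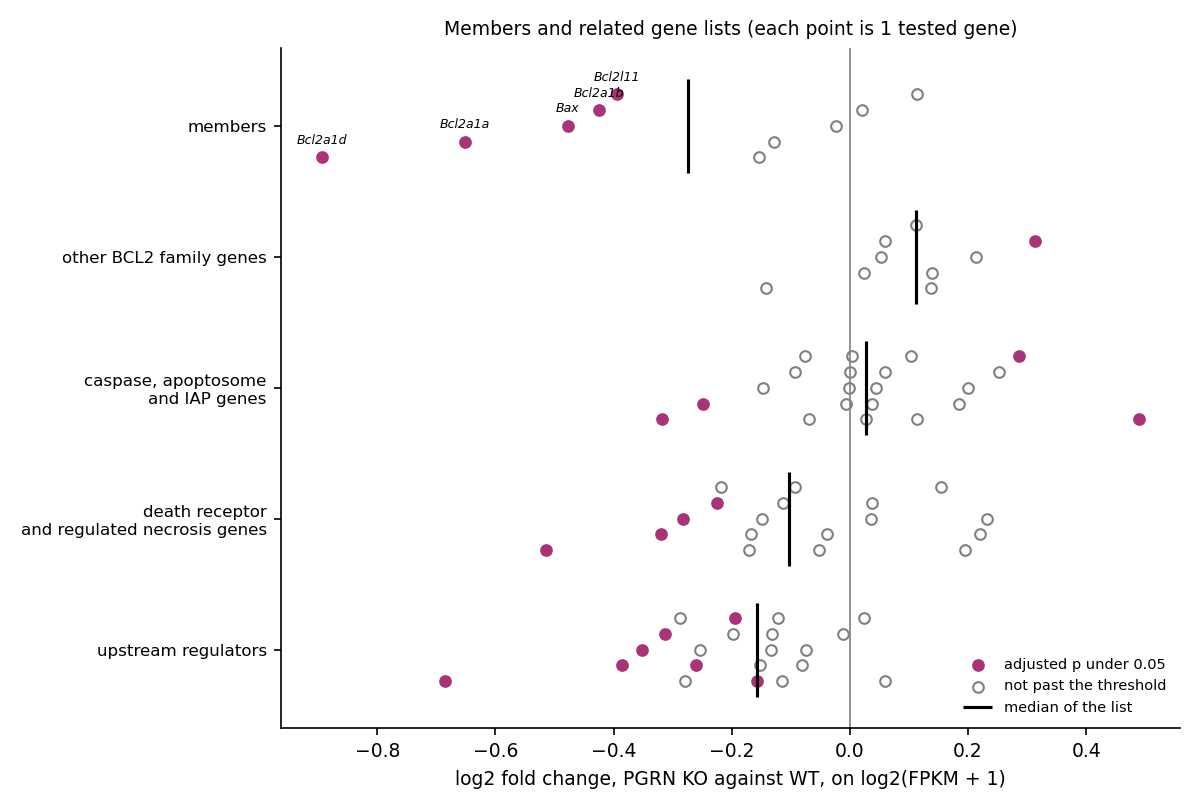
Log2 fold change of PGRN KO over WT for each tested gene of the 10 members and of the 4 related lists, with filled points for genes past an adjusted p of 0.05 in limma, names on the called members and a bar at each median. The medians are -0.27 for the members, 0.11 for other BCL2 family genes, 0.027 for caspase, apoptosome and inhibitor genes, -0.10 for death receptor genes and -0.16 for upstream regulators.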

How the data were processed

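RNA of 6 cultures, 3 WT and 3 PGRN KO, was sequenced. The deposited values are FPKM for 54532 genes, with a gene length column. Per the submitters' processing notes, CASAVA, HISAT2 (2.0.5), featureCounts (1.5.0-p3) and DESeq2 (1.20.0) were used on mm10/GRCm38, while the study's methods name HISAT and HTSeq for mapping and FPKM. FPKM multiplied by gene length and library size gave whole fragments within 0.05 for 100% of values above 0, and the library sizes behind the FPKM were those of median-of-ratios scaling. Depth was 17087344 to 18821091 fragments on genes, which covers counting error only. Replicates differed by more than sampling noise (chi-square per degree of freedom 2.83 to 11.7).

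The 14807 genes at 0.1 FPKM or more on average were compared on log2(FPKM + 1) with limma 3.58.1 (lmFit, eBayes with trend; R 4.3.3), two-sided, with Benjamini-Hochberg adjustment over all tested genes at 0.05. Python 3.11.15, numpy 2.4.6, pandas 2.3.3 and scipy 1.17.1 were used otherwise. The fit was tested on simulated data. The alternatives were a pseudocount of 0.1, no filter or a mean of at least 1, median-of-ratios, plain totals, quantile normalization, voom with TMM, eBayes without trend and each library left out. The median-of-ratios alternative nearly repeats the scaling of the deposited values, so its results could hardly differ from the main ones. Coordinates and exon overlaps are from GENCODE M21 (GRCm38), promoters from RefSeq (GRCm38.p6).

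All 10 members, Grn and the marker lists are reported. From each of 4 related lists, genes with an adjusted p under 0.05 and a mean FPKM of at least 1 could be named, with at most 3 of the highest FPKM. Bcl2a1c, genes overlapping members, and Apaf1, Naip5, Naip6, Cyld, Ripk3, Tradd and Vdac1 fall outside this rule and were named after their values were seen. Members and lists were chosen with earlier results of these data known. Some genes of the related and marker lists, which stay in the counts, are not reported here by name.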

Additional observations from a re-analysis of the deposited data

How the results depend on the processing

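Groups of 3 libraries limit these tests, and low fragment numbers limit Bcl2. The calls of Bcl2a1d, Bcl2a1a, Bax and Bcl2l11 as lower held under all alternatives run, and the summed Bcl2a1 genes ranged from -0.78 to -0.62. The number of members called ranged from 4 to 6, all lower except that voom called 1 higher. The filter at a mean FPKM of 1 left Bcl2 out. Reversed signs, none of them called, were Mcl1 under quantile normalization (0.077), Bak1 under plain totals (0.093), quantile normalization (0.014) and without WT replicate 1 (0.0043; range over left-out libraries -0.047 to 0.0043), and Bid without WT replicate 2 (-0.0083) or PGRN KO replicate 6 (-0.034; range -0.034 to 0.092).

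Over all genes, plain totals gave 2149 higher and 934 lower calls. Leaving out a library gave 1322 to 2161 calls, 540 to 913 higher and 775 to 1248 lower, with 1612 without WT replicate 1, 1335 without WT replicate 2, 1662 without WT replicate 3 and 1322 without PGRN KO replicate 5. Called genes among other BCL2 family genes were 3 under plain totals and quantile normalization and 0 to 1 with a library left out, where every library but PGRN KO replicate 6 gave 0. Caspase, apoptosome and inhibitor genes called were 2 with no filter, quantile normalization or eBayes without trend, and 1 to 3 with a library left out (1 without WT replicate 2, 2 without WT replicate 3, PGRN KO replicate 4 or PGRN KO replicate 6). Death receptor genes called were 2 under quantile normalization and 1 to 4 with a library left out (1 without WT replicate 2, 2 without WT replicate 3). Upstream regulators called were 4 with no filter, plain totals, quantile normalization or eBayes without trend, 11 with voom, and 3 to 10 with a library left out (3 without any WT replicate or without PGRN KO replicate 5, 4 without PGRN KO replicate 6). The cause was not tested. No paired analysis was possible because the genotypes share no replicate numbers.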
